A study of Mus musculus with 4 samples.

Results

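The SOCS family of feedback inhibitors was followed through RNA sequencing of T helper cells treated with inhibitors of the protein kinase CK2. The 8 genes were taken by name from the feature column of the deposited tables (Cish and Socs1 to Socs7), and all 8 of them were among the 37583 features. Sorted naive CD4+ T cells from the spleen of C57BL/6 mice had been stimulated on plate-bound antibodies to CD3 and CD28 for 24 h. All 4 cultures were of the kind that the labels call aTh17, with IL-1β (10 ng/ml), IL-6 (10 ng/ml) and IL-23 (20 ng/ml) and with antibodies against IL-4 and IFN-γ (10 µg/ml each). One library came from cells with 1.5 µM DMAT and another from cells with 1 µM CX4945. Each inhibitor has its own control library without inhibitor, named in the titles, so each of the 4 groups held 1 library. The labels do not say how many animals gave each culture, or whether cells were pooled. A difference between the inhibitors cannot be told apart from a difference between the experiments, because dose, compound and experiment change together.

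SOCS proteins are made in response to cytokines and then damp the same signal. A cytokine receptor activates Janus kinases (JAKs), these phosphorylate STAT transcription factors, and STATs switch on Cish and Socs genes. The SOCS protein binds phosphorylated receptor chains or JAKs through its SH2 domain, and its SOCS box recruits elongins and a cullin ubiquitin ligase. In T helper cells, SOCS3 binds the shared IL-6 receptor chain gp130 and restrains STAT3 and with it the Th17 fate, SOCS1 restrains interferon signalling, and CIS and SOCS2 are classical products of STAT5. SOCS4 to SOCS7 are less tied to a single cytokine.

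Start-site windows are shown first. Those printed, of Cish, Socs3 and Socs1, are the windows that held a pattern that STAT or interferon-regulated factors are known to read. RefSeq windows (GRCm38.p6, 250 bases before to 50 after the annotated start) were at hand for 4 of the 8 members, Cish, Socs1, Socs3 and Socs4. The pattern TTCNNNGAA, which STAT dimers bind, reads the same on both strands. It was found 2 times in the window of Cish and once in that of Socs3, where capitals mark it.
Cish window, chr9:107296409-107296708, plus strand: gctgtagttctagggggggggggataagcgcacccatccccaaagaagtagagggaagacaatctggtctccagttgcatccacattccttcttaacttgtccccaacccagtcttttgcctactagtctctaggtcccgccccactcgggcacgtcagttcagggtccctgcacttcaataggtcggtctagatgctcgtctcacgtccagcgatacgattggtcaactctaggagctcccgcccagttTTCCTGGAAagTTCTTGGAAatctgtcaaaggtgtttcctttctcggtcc
Socs3 window, chr11:117969317-117969616, minus strand: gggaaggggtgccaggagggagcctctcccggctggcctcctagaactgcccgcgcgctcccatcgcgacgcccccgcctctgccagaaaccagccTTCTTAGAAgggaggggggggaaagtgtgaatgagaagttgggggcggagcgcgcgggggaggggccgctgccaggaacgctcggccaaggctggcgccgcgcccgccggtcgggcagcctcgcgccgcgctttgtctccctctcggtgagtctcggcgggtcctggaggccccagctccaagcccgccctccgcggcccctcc
Of 32851 RefSeq windows of the same length, 8.3% held TTCNNNGAA at least once and 0.457% held it 2 or more times. In Cish the matches lay at bases 1 to 9 and 12 to 20 counted from the annotated start, and in Socs3 at -154 to -146. The windows of Socs1 and Socs4 held no TTCNNNGAA, and none of the 4 windows held the longer spacing with 4 bases between TTC and GAA, which 6.95% of all windows had. A pattern of GAAA, any 2 bases and GAAA again, close to the interferon-stimulated response element, was searched on both strands and was found 2 times in the window of Socs1, at -83 to -74 and -77 to -68, where the matches overlap each other. Of all windows 3.44% held it at least once, and 0.225% 2 or more times.
Socs1 window, chr16:10785487-10785786, minus strand: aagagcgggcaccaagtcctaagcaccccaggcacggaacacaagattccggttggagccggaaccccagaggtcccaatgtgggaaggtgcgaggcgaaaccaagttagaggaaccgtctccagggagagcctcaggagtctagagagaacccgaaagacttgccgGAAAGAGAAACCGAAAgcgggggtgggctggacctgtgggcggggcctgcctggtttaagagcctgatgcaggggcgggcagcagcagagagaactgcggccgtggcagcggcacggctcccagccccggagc
A match is a description of letters and says nothing about binding in these cells.

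The libraries held between 2056635 and 2772525 exon reads, the measure used throughout, and between 9331 and 9661 genes had at least 10 reads. Levels are given in CPM, the usual scaling of exon reads by library size (here with TMM factors), and a count of 0 would allow up to 3 reads, or 1.09 to 1.47 CPM. The T cell genes Cd3d, Cd3e, Cd3g, Cd4, Cd2 and Lck had reads in every library, with a sum between 1100 and 1240 CPM. The NK cell and erythroid genes looked for were at 0 in every library, the 5 B cell genes summed to at most 1.45 CPM with Cd79b and Ms4a1 at 0, the 5 myeloid genes to between 2.19 and 4.41 CPM with Lyz2 and Itgam at 0, and Cd8a and Cd8b1 to between 2.35 and 4.9 CPM. Of the Th17 genes, Il17f had 1048 reads in the control for DMAT, 131 with DMAT, 600 in the control for CX4945 and 134 with CX4945, and in the same order Il17a had 22, 3, 22 and 1, Il1r1 203, 86, 143 and 56, and Rora 176, 160, 124 and 75. Reads of Il17f, Il17a and Il1r1 were lower with either inhibitor, as were those of Il22 and Il23r, given further on, while those of Rora differed less with DMAT; their part in the other values was not tested. In bulk RNA, fewer cells of a kind and less RNA per cell cannot be told apart.

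All 8 members were transcribed in all 4 libraries, at levels that differed widely between genes. Compared per length, as CPM per exon kilobase, Socs1 had the highest mean level over the 4 libraries, 32.7 (range 28.7 to 37.9), followed by Socs3 with 22.9 (11.9 to 39.7). Cish with 14.1 (10.3 to 18.9) and Socs4 with 13.3 (11.9 to 16.4) came next, then Socs7 with 8.16 (7.44 to 9.46), Socs5 with 4.06 (3.39 to 4.82), Socs6 with 2.91 (2.44 to 3.65) and Socs2 with 0.846 (0.569 to 1.15). Neighbours in this order had overlapping ranges except for Socs4 and Socs7, Socs7 and Socs5, and Socs6 and Socs2. Among the 10342 genes tested, the mean level of Socs1 lay at percentile 79.4 and that of Socs2 at 4.02. The order depends on the gene model. The deposited exon lengths were 6419 bases for Cish, 1220 for Socs1 and 9532 for Socs2. The principal transcripts in GENCODE M21 have 2850, 2908 and 2222. With the latter lengths Cish led with 31.7, followed by Socs3 with 25.9 and Socs1 with 13.7. Socs2 was still last with 3.63, but close to Socs5 with 3.83 and Socs6 with 3.97, which changed places. The gap between Socs6 and Socs2 and the percentile of Socs2 therefore hold for the deposited lengths only. With unique reads only, Cish came the fifth in order, with 6.81.

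**Figure D1:**
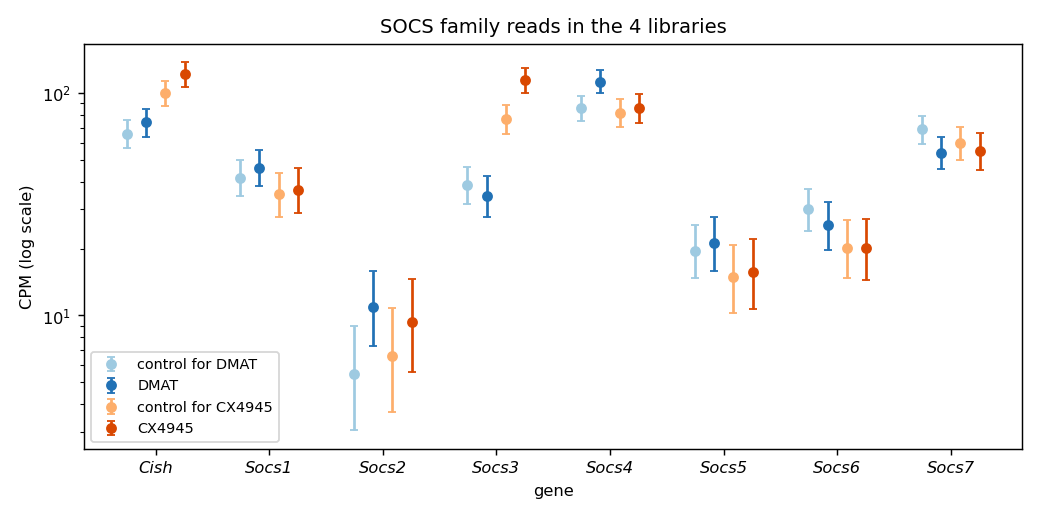
Level of each SOCS family gene (CPM, log axis) in the 4 libraries, with 95% Poisson counting intervals as bars. Socs2 lies between 5.43 and 10.96 CPM in all 4 libraries, and Socs3 is at 38.7 and 34.5 CPM in the DMAT experiment against 76.6 and 114.7 CPM in the CX4945 experiment.

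In mm9, the build given for these files, Cish lies on chromosome 9 (107198357 to 107205115), Socs1 on chromosome 16 (10783901 to 10785629), Socs2 on chromosome 10 (94847996 to 94879814) and Socs4 on chromosome 14 (47896606 to 47915773). Socs3 and Socs7 both lie on chromosome 11 (117827393 to 117831361 and 97223865 to 97259856), Socs5 lies on chromosome 17 (87507019 to 87536923) and Socs6 on chromosome 18 (88834616 to 89096873). The exon reads of Socs1, Socs3, Socs4, Socs5 and Socs7 were all unique, those of Socs6 to 98.3% and those of Socs2 to 85.7%. Cish stood apart with 39.7% unique reads, and 511 of its 847 reads were not unique; where else they fit is not named in the files. Its span overlaps those of the features Gm17040 and Gm17041, which had 12 and 36 exon reads over the 4 libraries. Of these, 11 and 36 were not unique, far fewer than the 511 of Cish. Whether counting used strand is not given in the sources used here. Few reads of any member crossed an exon junction, from 0.79% in Socs4 to 7.79% in Socs2, and between 2 (Socs4) and 35 (Socs5) gene reads over the 4 libraries fell outside exons.

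The question put to each pair was whether a CK2 inhibitor moved the members. None of the 8 was at least 2-fold higher or lower (log2 ratio with a prior count of 2) with DMAT, where 2.43% of 9649 genes were, or with CX4945, where 1.74% of 9358 genes were (0.844% higher and 0.898% lower). Ratios with DMAT ran from 0.786 to 2.02 and with CX4945 from 0.922 to 1.5. With DMAT the 95% counting interval of the ratio excluded 1 for Socs2, Socs4 and Socs7, 3 of 8 against 18.8% of all genes. It lay above 1 for 2 of them (8.58% of all genes) and below 1 for Socs7 (10.2%). With CX4945 it excluded 1 for Cish and Socs3, 2 of 8 against 14.8%, both above 1 (7.2% of all genes) and 0 below (7.56%). These ratios compare single libraries and have no replicate check; the intervals cover counting error only.

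Cish, the STAT5 product whose protein docks on the IL-2 receptor, had 182 reads in the control for DMAT, 189 with DMAT, 228 in the control for CX4945 and 248 with CX4945. In CPM these are 65.8, 74.0, 99.8 and 121.6. Both inhibitor libraries were above their own controls, and both libraries of the CX4945 experiment were above both of the DMAT experiment. The ratio was 1.12 with DMAT (0.912 to 1.39) and 1.22 with CX4945 (1.01 to 1.46). With unique reads the counts were 79, 78, 84 and 95, and the ratio with CX4945 was 1.27 with an interval that included 1 (0.934 to 1.72). The share of unique reads itself was 43.4% and 41.3% in the DMAT experiment and 36.8% and 38.3% in the CX4945 experiment.

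Socs1, whose protein blocks JAK catalysis and restrains the IFN-γ response, had 115, 118, 80 and 75 reads in the same order, or 41.6, 46.2, 35.0 and 36.8 CPM. The levels stayed within a narrow range, with ratios of 1.11 with DMAT (0.852 to 1.45) and 1.05 with CX4945 (0.756 to 1.46).

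Socs2, the regulator of growth hormone signalling, was the rarest member, with 15 reads in the control for DMAT, 28 with DMAT, 15 in the control for CX4945 and 19 with CX4945. These are 5.43, 10.96, 6.57 and 9.31 CPM, so both inhibitor libraries lay above both controls. The ratio was 2.02 with DMAT (1.04 to 4.07), which becomes a log2 ratio of 0.92 with the prior count and so stays below the 2-fold limit. With CX4945 it was 1.42 (0.683 to 3.0). At these counts the intervals are wide, and that with CX4945 includes 1.

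Socs3, the IL-6 and STAT3 feedback gene, had 107 reads in the control for DMAT, 88 with DMAT, 175 in the control for CX4945 and 234 with CX4945, or 38.7, 34.5, 76.6 and 114.7 CPM. It was the member whose ratios lay on opposite sides of 1: 0.89 with DMAT (0.664 to 1.19) and 1.5 with CX4945 (1.23 to 1.83). The arms overlap, since the control for CX4945 exceeded the DMAT library. For its receptor chain gp130, Il6st had 0.38 (DMAT) and 0.33 (CX4945) as log2 ratios, and Stat3 had -0.29 and 0.02; neither passed the joint test described further on (edgeR adjusted p = 0.388 and 0.842).

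The other members lack a single dominant cytokine. Socs4, linked to EGF receptor signalling, had 236, 288, 186 and 175 reads (85.4, 112.8, 81.4 and 85.8 CPM). Its highest value was in the DMAT library, with a ratio of 1.32 (1.11 to 1.57), and with CX4945 the ratio was 1.05 (0.852 to 1.3). Socs7, known for binding insulin receptor substrates, had 190, 138, 136 and 112 reads (68.8, 54.0, 59.5 and 54.9 CPM), and both inhibitor libraries lay below both controls. Its ratio was 0.786 with DMAT (0.627 to 0.984) and 0.922 with CX4945 (0.712 to 1.19). Socs5, an inhibitor of IL-4 receptor signalling, had 54, 54, 34 and 32 reads, with ratios of 1.08 (0.728 to 1.61) and 1.05 (0.63 to 1.76). Socs6, a relative of Socs7, had 83, 65, 46 and 41 reads, with ratios of 0.848 (0.603 to 1.19) and 0.998 (0.639 to 1.55). Neither Socs5 nor Socs6 had an interval that excluded 1 with an inhibitor.

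**Figure D2:**
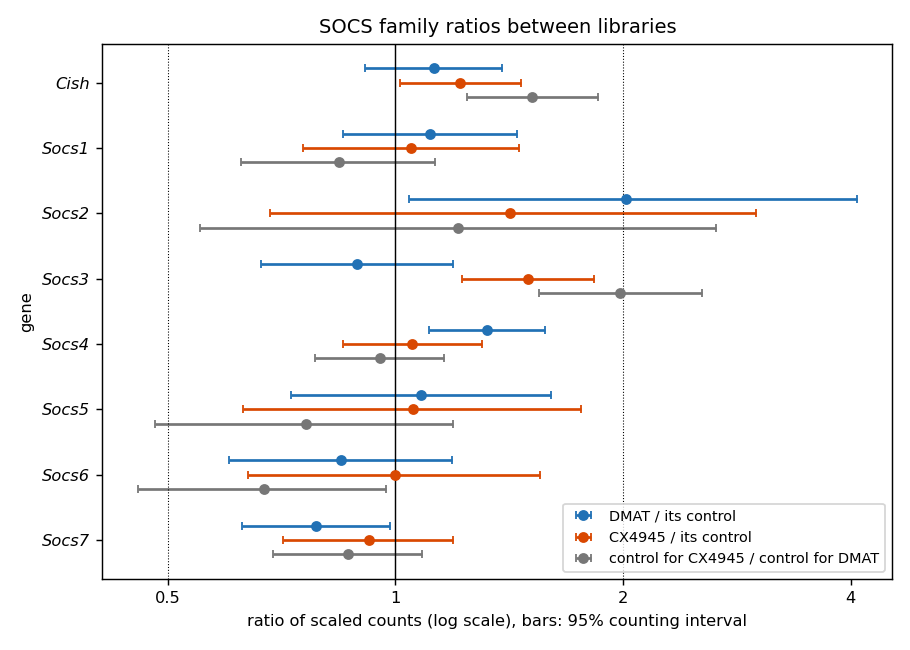
Ratio of scaled counts (log axis) for each SOCS family gene in 3 comparisons of single libraries, with 95% counting intervals as bars and dotted lines at 0.5 and 2. The ratios of Socs3 are 0.89 with DMAT, 1.5 with CX4945 and 1.98 between the controls, and most other intervals cross 1.

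The 4 libraries were next put into a single model, with the experiment as a block, to ask for a change shared by the inhibitors. The fit tested all 8 members and 0 passed (edgeR quasi-likelihood, Benjamini-Hochberg adjusted p between 0.69 and 0.978), where 1.04% of 10342 genes passed (0.406% higher and 0.638% lower). At an unadjusted p under 0.05 there were also 0 members, against 7.69% of all genes. DESeq2 with the block called 0 members, but only 3 of 10342 genes in all, so its count says little about the members. The log2 fold changes (inhibitors over controls, with 95% intervals) were 0.23 for Cish (-0.05 to 0.51), 0.28 for Socs3 (-0.06 to 0.61), 0.25 for Socs4 (-0.03 to 0.53) and 0.12 for Socs1 (-0.27 to 0.5). As folds, the intervals allowed 0.969 to 1.42 for Cish, 0.831 to 1.41 for Socs1, 0.963 to 1.52 for Socs3, 0.983 to 1.44 for Socs4 and 0.678 to 1.06 for Socs7. The intervals were wider for the rare members, with 0.718 to 1.59 for Socs5, 0.641 to 1.29 for Socs6 and 0.963 to 3.02 for Socs2. A fold of 2 therefore lay outside the interval for every member except Socs2. These intervals rest on 1 residual degree of freedom per gene and on a spread taken mostly from other genes. Without the DMAT library, and then without the block, the log2 fold change of Socs3 was 1.01, and without the CX4945 library it was -0.72. Such fits leave a lone library in 1 arm, so their calls cannot check the members. With all 4 libraries and no block, 1 gene of all passed in place of 108.

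Directions were shared by the inhibitors for 7 of the 8 members, 5 above 1 and 2 below, the exception being Socs3; over all genes tested 52.6% had the same sign. For Socs6 the sign with CX4945 rests on a log2 ratio of -0.003. Both inhibitor libraries lay above both controls for Socs2 and Socs4 and below both for Socs7, 3 of 8 members against 30% of all genes. The median log2 ratio of the members was 0.13 with DMAT and 0.07 with CX4945, beside -0.005 and 0 over all genes.

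**Figure D3:**
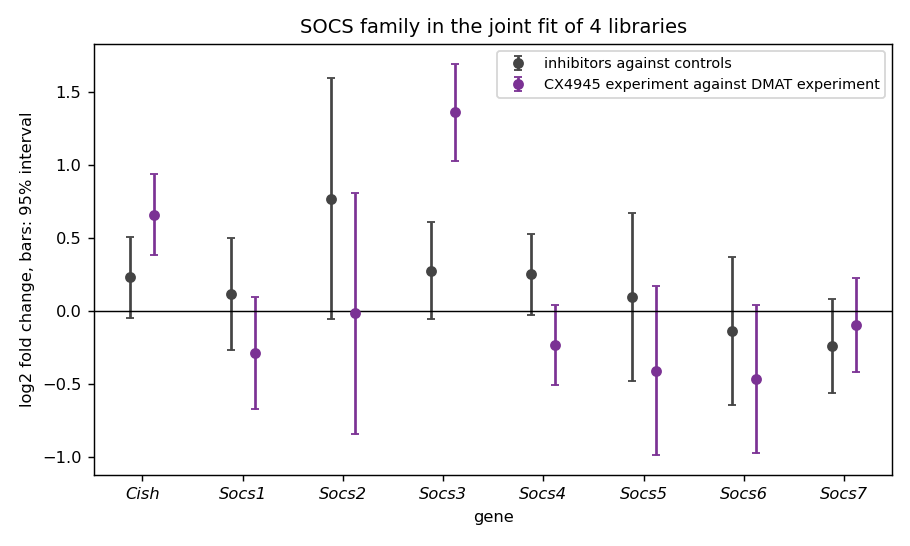
Log2 fold changes of the 8 genes in the joint fit of 4 libraries, with 95% intervals as bars, for inhibitors against controls (grey) and for the CX4945 experiment against the DMAT experiment (purple). Every grey interval includes 0, while the purple intervals of Socs3 (1.03 to 1.69) and Cish (0.38 to 0.93) lie above it.

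Socs3 and Cish were higher in the CX4945 experiment than in the DMAT experiment, among controls and among inhibitor libraries. Between the control libraries Socs3 was 1.98-fold higher in that for CX4945 (1.55 to 2.54) and Cish 1.52-fold (1.24 to 1.85), while Socs6 had a ratio of 0.671 (0.457 to 0.973). With a log2 ratio of 0.97 Socs3 stayed just below the 2-fold limit, which 2.3% of 9564 genes reached between the controls. The counting interval excluded 1 for 3 of 8 members, against 18.6% of all genes, with 2 above (9.08%) and 1 below (9.56%). With unique reads the ratio of Cish between the controls was 1.3 and its interval included 1 (0.942 to 1.79), and between the inhibitor libraries it was 1.53 (1.12 to 2.09). Between the inhibitor libraries Socs3 was 3.33-fold higher with CX4945 than with DMAT (2.59 to 4.3) and Cish 1.64-fold (1.35 to 2.0), while Socs4 had a ratio of 0.761 (0.627 to 0.921). Socs3 was the 1 member of 8 past 2-fold there, against 4.58% of all genes (2.15% higher), and the interval excluded 1 for 3 of 8, against 27.9% (14.5% above and 13.4% below).

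In the joint fit, the difference between the experiments was tested after the values of Socs3 and Cish had been seen. Each experiment gave 1 control and 1 inhibitor library, and the data hold no repeat of either experiment. The p-values below therefore do not speak for experiments in general. The fold is an average over both arms, which for Socs3 differed, at 1.98 between the controls and 3.33 between the inhibitor libraries. Socs3 was higher in the CX4945 experiment by 1.36 ± 0.17 on the log2 scale (SE; adjusted p = 2.87e-08 in edgeR's quasi-likelihood test), a fold of 2.57 (2.04 to 3.23) with both libraries above both of the other experiment. Cish was higher by 0.66 ± 0.14 (adjusted p = 0.000974), a fold of 1.58 (1.3 to 1.91), also in both libraries. They were 2 of 8 members, where 4.76% of all genes passed and 2.56% were higher. With unique reads Socs3 passed (1.37, adjusted p = 1.24e-14) and Cish did not (0.49, adjusted p = 0.152); with DESeq2 the adjusted p was 0.0357 for Socs3 and 0.968 for Cish. Without the CX4945 library, and with no term for the inhibitor, Socs3 stood at 1.06 (edgeR adjusted p = 0.0287) and Cish at 0.51 (0.372). The other 6 members did not pass, with log2 fold changes from -0.46 (Socs6) to -0.016 (Socs2). Libraries of different experiments did not overlap for 5 members, Cish, Socs1, Socs3, Socs5 and Socs6, against 44.2% of all genes.

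The genes with a profile most like that of Socs3 over the 4 libraries were sought among 8335 genes with at least 100 reads, by the root mean square difference of log2 CPM after centring each gene on its mean. Egr1, an immediate early transcription factor gene induced through the T cell receptor, was closest with a difference of 0.055. It stood at 93.7, 76.0, 182 and 258 CPM in the order used above, and its log2 ratio was -0.3 for DMAT, 0.5 for CX4945 and 0.95 between the controls. Gm8995 followed with a difference of 0.109 and between 23 and 55 reads, and then Tapbp, which encodes the peptide-loading factor tapasin, with 0.123. Tapbp stood at 26.1, 27.8, 59.5 and 76.0 CPM. The likeness rests on 4 points per gene. No other member with at least 100 reads varied by 2-fold or more over the libraries.

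**Figure D4:**
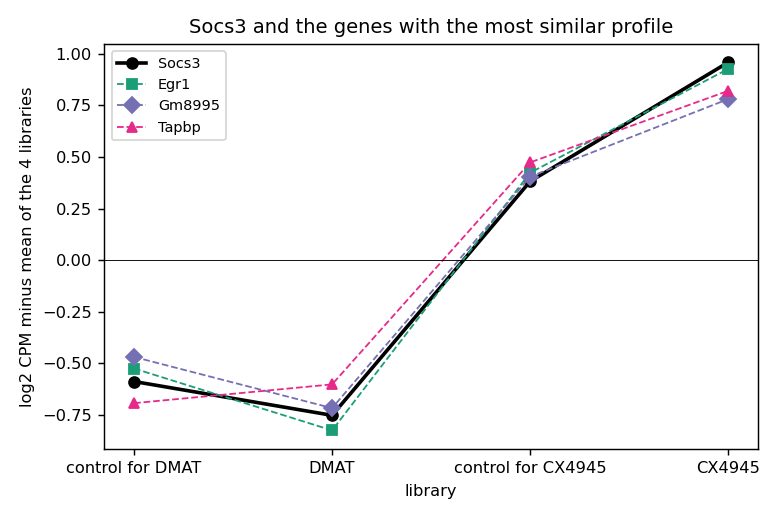
Log2 CPM minus the gene's mean over the 4 libraries for Socs3 and the 3 genes with the smallest root mean square difference from it. All 4 genes lie below 0 in the DMAT experiment and above 0 in the CX4945 experiment, and Socs3 spans from -0.75 with DMAT to 0.96 with CX4945.

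Upstream of the members, STATs and ligands held genes that fell. Of the 7 STAT genes tested 2 fell and 0 rose, where 0.638% of all genes fell and 0.406% rose. Stat5a and its paralog Stat5b, which did not pass, encode the STAT5 proteins that drive Cish and Socs2 in lymphocytes. Stat5a had 1208, 791, 1252 and 877 reads, or -0.5 and -0.35 as log2 ratios for DMAT and CX4945 (joint -0.42 ± 0.09, edgeR adjusted p = 0.00392). Stat4, the IL-12 and IL-23 responsive STAT, had 163, 71, 134 and 84 reads, with -1.06 and -0.5 (adjusted p = 0.0103). For Stat5a and Stat4, the inhibitor library was below its control in each experiment. Of 5 ligand genes tested 2 fell, Lif (-0.57 and -0.42, adjusted p = 0.00246), an activator of gp130, and Il22, with 62, 0, 78 and 22 reads (adjusted p = 2.83e-05, and 0.793 with the robust option of edgeR). Only 45.7% of the reads of Il22 were unique, and with unique reads it passed in edgeR (adjusted p = 3.55e-05). Of 20 receptor chains tested Il23r alone fell, with 107, 16, 82 and 30 reads (adjusted p = 2.26e-05), and 0 rose; Il12rb2 had -0.54 and -0.46 (adjusted p = 0.467). None of the 4 JAK genes passed in this fit, where Jak2 had log2 ratios of -0.48 and -0.11 (adjusted p = 0.087). Jak2 did pass in edgeR with unique reads (adjusted p = 0.0248) and with no filter beyond 1 read (0.0305). It did not pass without the block or with DESeq2. As with these genes, the reads of Il17f and Il1r1 were lower in both inhibitor libraries than in their controls. All 5 calls of the joint fit (Stat5a, Stat4, Lif, Il22 and Il23r) were lost without the block (adjusted p from 0.696 to 1) and with DESeq2 (0.163 to 1).

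Partners and other brakes of the pathway were tested in the same fit. Of 9 elongin, cullin and related ligase genes, 11 other SOCS box genes and 16 other JAK-STAT inhibitors tested, 0 passed in each list, where 1.04% of all genes passed, so lists of this size would hold few or no calls at that share. By the rule for named genes, the log2 ratios (DMAT first) were -0.24 and -0.54 for Ube2f, a NEDD8-conjugating enzyme gene, and -0.11 and -0.12 for Rbx1, a cullin partner. Among SOCS box genes Wsb2 had -1.16 and -0.39 and Asb3 had -0.47 and -0.33. Among inhibitors the ubiquitin ligase gene Cblb had 0.75 and 0.03 and the adaptor gene Sh2b1 had 0.07 and 0.64. Their adjusted p in edgeR's test ran from 0.167 (Wsb2) to 0.939 (Rbx1). The list medians were 0.002 with DMAT and -0.12 with CX4945 for the ligase parts, -0.2 and -0.03 for the SOCS box genes, and -0.05 and 0.06 for the other inhibitors.

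Among genes that respond to the same STATs, the 16 of the STAT5 list had 2 that rose (0.406% of all genes) and 0 that fell, with medians of 0.02 and -0.02. The lymphotoxin gene Lta had 50, 59, 93 and 169 reads (joint log2 0.77, edgeR adjusted p = 0.0423). It also differed between the controls by 1.14, and its call was lost with scaling by total reads and with the filterByExpr filter of edgeR. Tnfrsf18, which encodes GITR, had 102, 191, 83 and 98 reads (adjusted p = 0.0175), but 25.1% of its reads were unique and its call was lost with unique reads (adjusted p = 0.237). Neither call held without the block or with DESeq2 (adjusted p = 1 each). Of 15 STAT3 response genes 0 passed, with medians of -0.02 and -0.001; Batf had -0.28 and -0.3 (edgeR adjusted p = 0.249) and Il6ra 0.14 and 0.54 (0.718).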

How the data were processed

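RNA was measured in 4 libraries of mouse CD4+ T cell cultures, from TRIzol RNA with a TruSeq RNA kit, per the labels' protocols, on an Illumina MiSeq. The deposited values used were raw whole-number counts of exon reads per gene, reads without a unique place included. CASAVA 1.8.2 and mm9 were used, per the submitters' processing notes; no aligner, annotation or counting rule is given in the sources used here.

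Libraries were scaled by TMM (edgeR 4.0.16, R 4.3.3). Log2 ratios used a prior count of 2, a pair needed 20 reads, and ratio intervals are exact conditional (Clopper-Pearson) 95% intervals, which like the floor of 3 reads cover counting error only. The joint fit (edgeR quasi-likelihood, Benjamini-Hochberg, threshold 0.05) used 10342 genes with at least 20 reads in all and 5 in at least 2 libraries. Its SE is the size of the log2 fold change over the square root of F. DESeq2 1.42.0 was an alternative. Titles give the pairing; the experiments' difference in controls and that in inhibitor libraries had Pearson's r = 0.425 across 6969 genes with at least 200 reads, which are not independent replicates. The residual spread of the joint fit is the disagreement of both inhibitors, which differ in compound, dose and experiment, and not a spread of replicates. No label names separate cultures or animals, so the library spread that is part of it may be technical.

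Members and gene lists were chosen with earlier results of these data known. Pathway genes named passed the joint test or, per list, were among the 2 with the largest mean ratio of the same sign and at least 100 reads; Il6st and Stat3 were chosen after their values were seen. Added after seeing the data were the GAAA pattern, the comparisons between experiments other than that of the controls, GENCODE lengths, filterByExpr and the robust option. The sum over the Th17 markers and the results of 1 gene list are not reported here.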

Additional observations from a re-analysis of the deposited data

Results flagged for a closer look

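Socs3 had ratios on opposite sides of 1 in the experiments: its log2 ratio was -0.165 for DMAT and 0.576 for CX4945. The difference was not tested, since each inhibitor has 1 library. The interval with DMAT included 1.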

How the results depend on the processing

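No member passed the joint test with any scaling, filter, read type or tool run on all 4 libraries. Leaving out each library in turn, without the block, left a lone library in 1 arm. The log2 fold change of Socs3 was then 1.01 without the DMAT library, where the CX4945 library alone stands against both controls. It was -0.72 without the CX4945 library, -0.06 without the control for DMAT and 0.93 without the control for CX4945. Lta turned to -0.32 without the CX4945 library. In such fits the lone library is assumed to vary like the rest. Against 108 genes in the joint fit, 1 passed without the replicate block, 3 with DESeq2 and the block, 95 with filterByExpr and 96 with the robust option. No member was called with or without the block. With so few calls among all genes, this says little about the members. Against the control of the other experiment 1 member passed 2-fold with each inhibitor, Socs3, at 0.45 (DMAT) and 2.96 (CX4945), and against both controls summed 0 did with DMAT and 1 with CX4945 (2.05). The count of 2-fold genes with CX4945, 163, became 365, 296, 847 and 103 with the other control, both controls, no filter and unique reads, and that with DMAT, 234, became 981 with no filter. Between experiments, 492 genes passed; 38 did without a term for the inhibitor, 11 with DESeq2 and, without each library in turn, 218, 99, 232 and 24, and 1 member in place of 2 passed with unique reads, DESeq2 or no inhibitor term, and 1 to 2 without each library. Depth limits Socs2, Socs5 and Socs6 most.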

Other observations

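The 8 genes together had 982 reads in the control for DMAT, 968 with DMAT, 900 in the control for CX4945 and 936 with CX4945, or 355, 379, 394 and 459 CPM. Socs4 held the largest part of these reads in the DMAT experiment, 24.0% and 29.8%, and Cish in the CX4945 experiment, 25.3% and 26.5%. The lead of Cish there rests on reads without a unique place. Its unique reads in the control for CX4945 and with CX4945 were 84 and 95, against 186 and 175 for Socs4 and 175 and 234 for Socs3. The part of Socs3 was 10.9% and 9.09% in the DMAT experiment and 19.4% and 25% in the CX4945 experiment. These shares follow read counts and are not corrected for length.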
